A study of Mus musculus with 6 samples.

Results

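The mitochondrial SLC25 carrier family was followed in hearts that had lost Mrps5, which encodes a small-subunit protein of the mitochondrial ribosome. Members were taken by name, as every protein-coding gene of the expression table called Slc25a followed only by digits, which gave 47 of the 54532 genes. RNA came from 6 mouse hearts, 3 control (Ctrl) and 3 conditional knockout (cKO). All 6 mice were Mrps5 fl/fl and received tamoxifen by intraperitoneal injection at 45 mg/kg per day for 5 days at 8 weeks of age. The cKO mice alone also carried MCM, the αMHC-MerCreMer transgene, which expresses a tamoxifen-inducible Cre recombinase in cardiomyocytes. The hearts were sampled 12 weeks later, from ventricular tissue by the study's methods. Because no Ctrl mouse carried MCM, an effect of the active recombinase and an effect of losing Mrps5 cannot be told apart.

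SLC25 proteins are small carriers that sit, with few exceptions, in the inner mitochondrial membrane and exchange one solute for another across it. They bring in ADP, phosphate, nucleotides, cofactors, fatty acyl groups and amino acids, and let ATP and metabolic intermediates out. In cardiac muscle the ADP/ATP carrier is among the most abundant proteins of the inner membrane, since nearly all the ATP used for contraction leaves the matrix through it. Slc25a4 encodes the ADP/ATP carrier typical of heart and skeletal muscle, Slc25a5 the form typical of many other and of proliferating tissues, and Slc25a31 a form typical of the male germ line.

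Levels are given as FPKM, fragments per kilobase of gene scaled to a library size that the authors had adjusted between samples, so that values of different genes can be compared per unit of length. The libraries held 15989322 to 24875499 reads assigned to genes, and the library size implied by the values was 0.913 to 0.980 times this total in Ctrl and 1.06 times in cKO hearts. Mrps5 itself fell from 5.99 ± 0.690 FPKM in Ctrl to 1.22 ± 0.0947 FPKM in cKO (SD, n = 3 each), which left 20.4% in the tissue sampled. Errors given as ± are SD over 3 hearts throughout. Xist, transcribed from the inactive X chromosome, stood at 10.7 FPKM in cKO replicate 2 with the Y-linked Ddx3y at 0. The other 5 hearts had Xist at 0.127 FPKM or less and Ddx3y at 12.7 FPKM or more. Replicate 2 of cKO thus had the pattern of a female heart, whereas the study states that only male mice were used. No Ctrl heart had this pattern, so sex was not balanced between the groups. Of all 12944 genes tested, 17.0% were lower and 16.3% higher in cKO at a limma adjusted p under 0.05. These shares are the background for the marker counts that follow. The 10 cardiomyocyte markers examined included 7 that were lower in cKO. Their summed level ran from 22994 to 28373 FPKM in Ctrl and from 13239 to 20769 FPKM in cKO hearts. Of 5 endothelial markers 3 were lower, with sums of 109 to 127 FPKM against 71.2 to 86.0 FPKM, and of 6 fibroblast markers 3 were higher and 1 lower, with overlapping sums of 136 to 159 FPKM against 139 to 160 FPKM. Summed atrial markers ranged from 128 to 2052 FPKM in Ctrl and from 575 to 1652 FPKM in cKO hearts, and none of these 4 passed the test in limma, at an unadjusted p under 0.05 or with voom. Of the macrophage markers 1 of 5 was lower, of the smooth muscle markers 1 of 3 tested was higher, and none of 5 erythroid and 4 adipocyte markers passed by any of these criteria. The part of these differences in the results on carriers was not tested. In bulk tissue, fewer cells of a type and less RNA per cell cannot be told apart.

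Slc25a4 and Slc25a5 are close relatives, and their sequences are shown because the comparison of the genes rests on reads being assigned to the right one. Each has a coding sequence of 897 bases, and 77.6% of 903 aligned columns were identical. The first 90 coding bases of each, from GENCODE mouse release transcripts of the GRCm38 build, are given 5′ to 3′ with the 24 bases that differ in capitals.
Slc25a4: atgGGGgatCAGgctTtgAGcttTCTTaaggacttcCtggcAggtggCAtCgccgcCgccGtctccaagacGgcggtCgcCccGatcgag
Slc25a5: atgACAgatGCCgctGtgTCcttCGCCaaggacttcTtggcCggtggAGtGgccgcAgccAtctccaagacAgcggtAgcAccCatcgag
The differences lie at short intervals along the whole stretch, and the longest run identical between the transcripts of both genes was 20 bases. No window of 50 bases of either transcript was found in a transcript of any other member, and reads were 150 bases long. For each of Slc25a4 and Slc25a5, the row of 1 annotated pseudogene was examined, and it stood at 0 in all 6 hearts. A value of 0 cannot show how reads that match several places were counted. Other copies in the genome were not examined.

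The ADP/ATP carriers moved in opposite directions. Slc25a4 (ENSMUSG00000031633, chromosome 8, 46206797 to 46211284, minus strand, GRCm38) measured 2083, 2494 and 2376 FPKM in Ctrl replicates 1, 2 and 3, against 1428, 1562 and 1500 FPKM in the cKO replicates of the same numbers, the order kept below. All cKO hearts lay below all Ctrl hearts. The mean fell from 2318 ± 212 to 1497 ± 67.0 FPKM, or to 64.6% of Ctrl, a log2 fold change of -0.63 on the scale of log2(FPKM + 1) (SE 0.10, limma adjusted p 0.00493). Slc25a5 (ENSMUSG00000016319, chromosome X, 36795651 to 36798807, plus strand, GRCm38) measured 171, 194 and 198 FPKM in the Ctrl against 378, 393 and 353 FPKM in the cKO hearts. Here every cKO heart lay above every Ctrl heart, with the Xist-positive cKO replicate 2 the highest. The mean rose 2.00-fold, from 188 ± 14.8 to 375 ± 20.1 FPKM, with a log2 fold change of 0.99 (SE 0.0896, limma adjusted p 0.00101). Without cKO replicate 2 the log2 fold change of Slc25a5 was 0.96 and that of Slc25a4 -0.66. Slc25a31 was hardly detected, at 0, 0.0904 and 0.0777 FPKM in Ctrl and 0.111, 0.181 and 0.224 FPKM in cKO hearts. These are 0 to 12 reads per heart, and the gene was not tested.

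The balance between both carriers was compared within each heart, where scaling between libraries has no part. Slc25a4 exceeded Slc25a5 by 12.2, 12.8 and 12.0 times in the Ctrl hearts and by 3.78, 3.97 and 4.24 times in the cKO hearts. The groups were far apart against their spread, at a log2 ratio of 3.62 ± 0.0526 in Ctrl and 2.00 ± 0.0846 in cKO, a difference of -1.63 (exact permutation p 0.1, two-sided, the smallest that 3 against 3 hearts allow). Leaving out each heart in turn moved this difference only between -1.67 and -1.59. As a share of ADP/ATP carrier FPKM, Slc25a4 took 92.5% ± 0.251 in Ctrl and 80.0% ± 0.934 in cKO hearts, so it remained the main form in every heart. The gain of Slc25a5 did not make up for the loss of Slc25a4 in summed level, since the sum of the ADP/ATP carriers went from 2506 ± 225 to 1872 ± 76.1 FPKM without overlap between groups (exact permutation p 0.1).

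**Figure D1:**
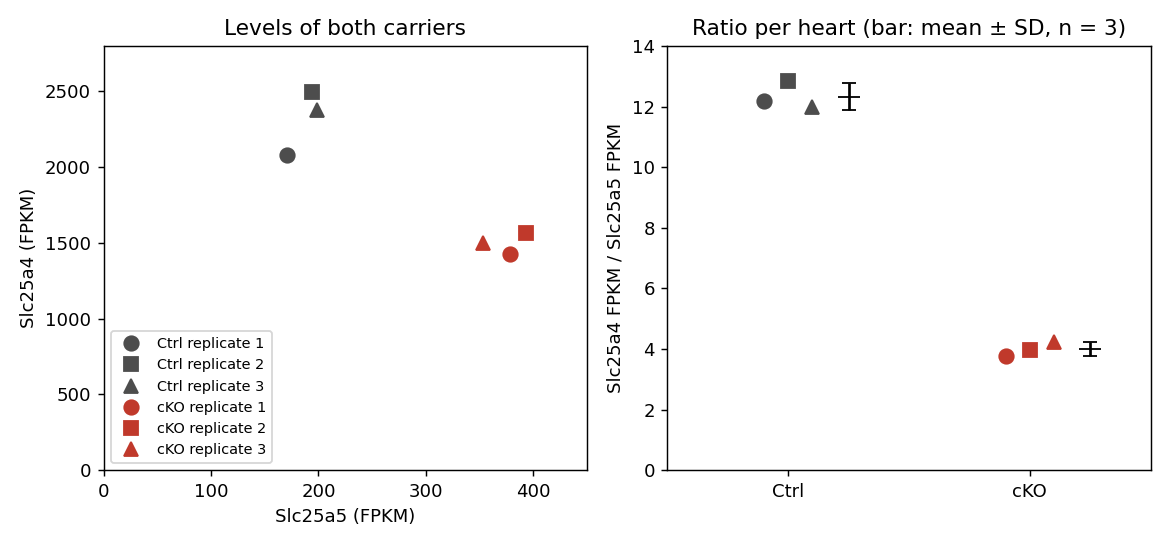
Left, Slc25a4 against Slc25a5 in FPKM, 1 point per heart (grey Ctrl, red cKO, symbols by replicate). Right, the ratio of Slc25a4 to Slc25a5 FPKM per heart with the mean ± SD of each group, which lies between 12.0 and 12.8 in Ctrl and between 3.78 and 4.24 in cKO hearts.

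Over the family, 38 of the 47 members reached the mean of 0.5 FPKM that the test required. Of these, 12 were lower and 5 higher in cKO at an adjusted p under 0.05, together 17 (44.7%), where 33.3% of all 12944 genes tested were called. By direction, 31.6% of the members tested were lower against a background of 17.0%, and 13.2% were higher against 16.3%. Calls over all genes were 2110 higher and 2205 lower, and 2649 higher and 1621 lower when mtDNA-encoded genes were left out of the totals used for scaling, which gave 7 higher and 11 lower members. The groups did not overlap for 28 members (73.7%), against 51.2% of all genes. The median log2 fold change was -0.15 over the members tested and -0.02 over all genes. The median of the members was -0.09 scaled without mtDNA-encoded genes and -0.06 without the filter on low values. Of the 24 members that reached 5 FPKM in either group mean, 11 were lower and 4 higher, 62.5% together, where 45.0% of all genes at that level were called. Below that level 1 of 14 tested members was lower and 1 higher, 14.3% together. Calls were also rarer over all genes below that level, since 33.3% were called at any level and 45.0% at or above it. Without Ctrl replicate 2, the counts dropped to 8 lower and 3 higher members.

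**Figure D2:**
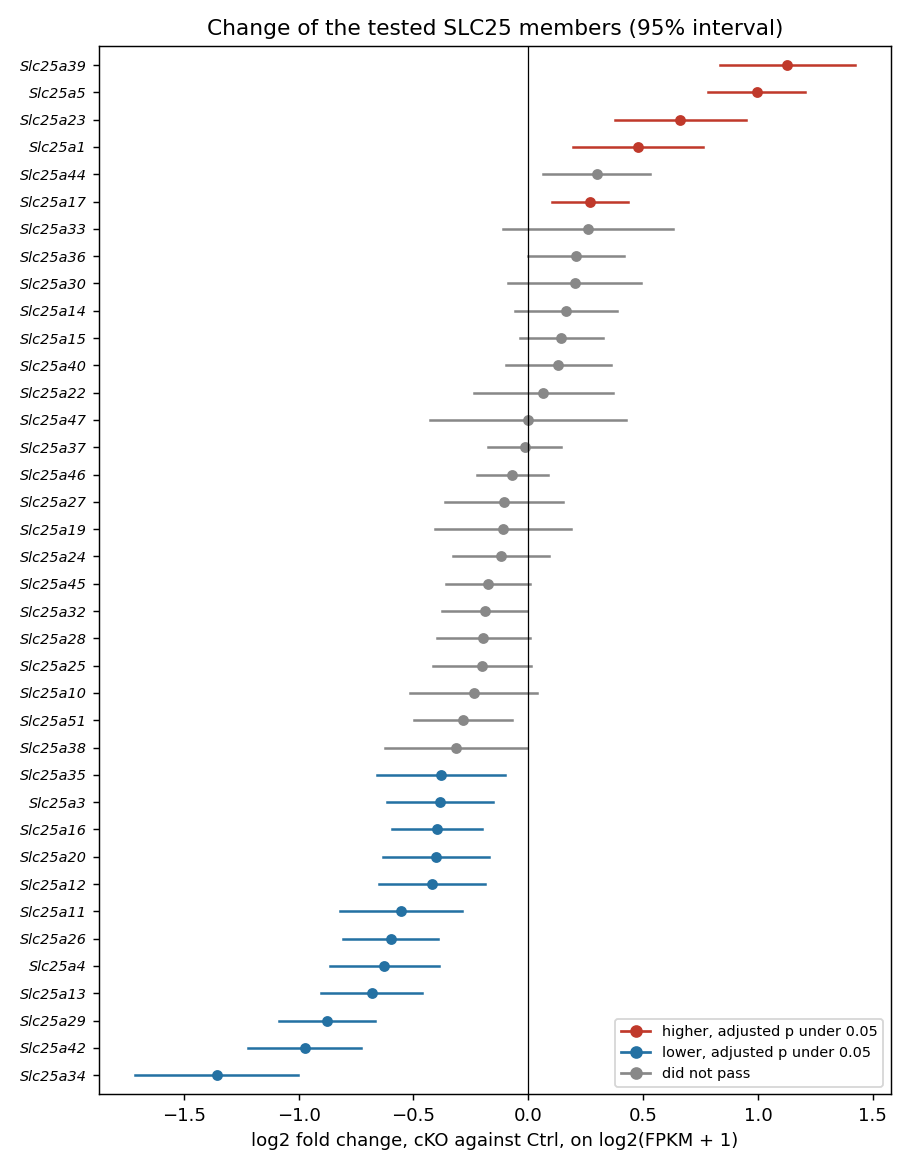
Log2 fold change of cKO against Ctrl on log2(FPKM + 1) for the 38 tested members, sorted, with 95% intervals from limma (red higher, blue lower at an adjusted p under 0.05, grey did not pass). Slc25a39 and Slc25a5 lie at the upper end, at 1.13 and 0.99, and Slc25a34 at the lower end, at -1.36.

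The summed level of the family followed its main member. It was 3117, 3683 and 3482 FPKM in the Ctrl hearts and 2535, 2701 and 2619 FPKM in the cKO hearts. The groups did not overlap, at 3427 ± 287 and 2618 ± 82.9 FPKM (exact permutation p 0.1), or 76.4% of Ctrl. As a percentage of all FPKM of a heart, the family took 0.669, 0.732 and 0.765% in Ctrl and 0.606, 0.676 and 0.629% in cKO. On that scale the groups overlapped, and the cKO mean was 88.2% of Ctrl (exact permutation p 0.2). As a percentage of FPKM without mtDNA-encoded genes, the family took 1.15, 1.27 and 1.27% in Ctrl and 0.977, 1.01 and 1.00% in cKO. There the groups did not overlap, and the cKO mean was 81.3% of Ctrl (exact permutation p 0.1). Slc25a4 alone held 67.6% ± 0.717 of the family sum in Ctrl and 57.2% ± 0.757 in cKO, while the share of Slc25a5 went from 5.49% ± 0.213 to 14.3% ± 0.743. With Slc25a4 left out, the sums overlapped, at 1110 ± 77.8 and 1121 ± 16.0 FPKM (exact permutation p 0.7). With Slc25a5 left out as well, they were 922 ± 67.3 and 746 ± 18.8 FPKM, again without overlap (exact permutation p 0.1). By rank within a heart, Slc25a4 came first in all 6 hearts, and Slc25a5 moved from the fourth place in each Ctrl heart to the second place in each cKO heart.

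**Figure D3:**
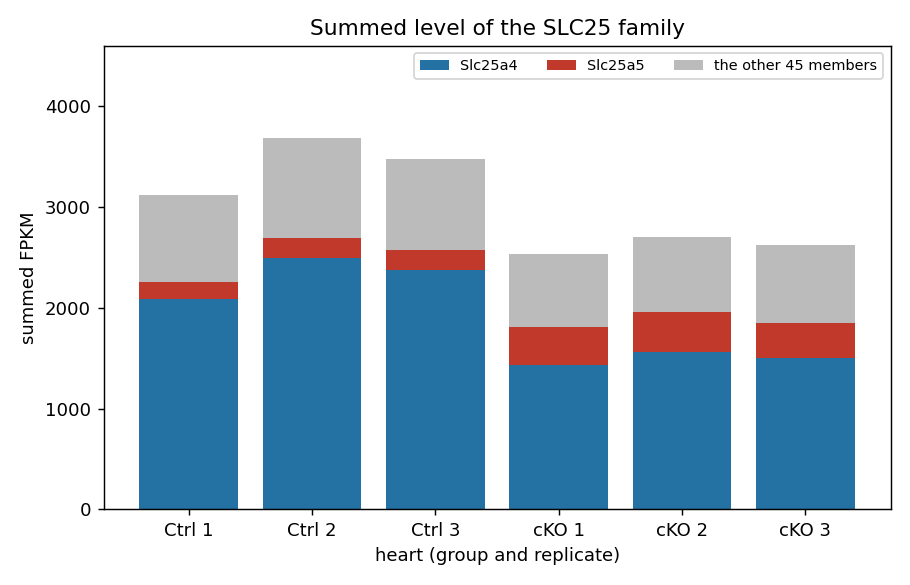
Summed FPKM of the 47 members in each heart, stacked as Slc25a4 (blue), Slc25a5 (red) and the other 45 members (grey). The Ctrl hearts reach 3117 to 3683 FPKM and the cKO hearts 2535 to 2701 FPKM, with a wider red band in the cKO hearts.

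The phosphate carrier and the carriers of the malate-aspartate shuttle were lower in cKO. Slc25a3 (chromosome 10), which brings in the phosphate used for ATP synthesis, measured 251, 297 and 295 FPKM in Ctrl against 199, 226 and 219 FPKM in cKO hearts. The groups did not overlap, with -0.38 as the log2 fold change (SE 0.0975, limma adjusted p 0.0239). Its call was lost when single hearts were left out, with an adjusted p of 0.0762 without Ctrl replicate 2, 0.0838 without Ctrl replicate 3, 0.0685 without cKO replicate 1 and 0.0560 without cKO replicate 3. Slc25a11 (chromosome 11), the oxoglutarate/malate carrier, measured 217, 263 and 211 FPKM in Ctrl against 142, 167 and 159 FPKM in cKO hearts. All cKO values were again below all Ctrl values, with a log2 fold change of -0.56 (SE 0.112, limma adjusted p 0.0107). Slc25a13 (chromosome 6), the calcium-regulated aspartate/glutamate carrier citrin, measured 35.8, 45.1 and 41.1 FPKM in Ctrl against 24.8, 24.6 and 25.1 FPKM in cKO hearts. The cKO hearts were nearly equal in this gene and all lower, at a log2 fold change of -0.68 (SE 0.0937, limma adjusted p 0.00304). Slc25a12 (chromosome 2), the related carrier aralar, measured 32.3, 37.2 and 38.0 FPKM in Ctrl against 27.1, 24.0 and 28.5 FPKM in cKO hearts. It did not overlap either and fell by 0.42 on the log2 scale (SE 0.0978, limma adjusted p 0.0176), a call that was lost without Ctrl replicate 2 (adjusted p 0.0624) or Ctrl replicate 3 (adjusted p 0.0638). Of the 6 enzymes of the malate-aspartate and glycerophosphate shuttles, 1 was lower and none higher, Mdh1, the cytosolic malate dehydrogenase, at 815 ± 51.7 in Ctrl and 592 ± 48.0 FPKM in cKO (limma adjusted p 0.0119). At an unadjusted limma p under 0.05 these counts were 2 and 0, and with voom on the reads 1 and 0. The limma call was 16.7% of these enzymes, against 33.3% of all genes tested. Slc25a3 shares 246 bases with Gm24119 and Slc25a11 shares 245 bases with Rnf167, and their values are uncertain to that extent.

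Slc25a20 (chromosome 9), which exchanges acylcarnitine for carnitine and so admits fatty acyl groups to the matrix, measured 43.5, 47.9 and 41.9 FPKM in Ctrl against 29.7, 36.2 and 34.3 FPKM in cKO hearts. No cKO heart reached the lowest Ctrl heart. It fell by 0.40 on the log2 scale (SE 0.0971, limma adjusted p 0.0201), with an adjusted p of 0.0534 without Ctrl replicate 1 and 0.0682 without Ctrl replicate 2. Of 4 carnitine shuttle enzymes tested, 2 were lower and none higher by limma. Of all genes tested, 17.0% were lower and 33.3% were called in either direction. For these enzymes the counts were 3 and 0 at an unadjusted limma p under 0.05, and 2 and 0 with voom. Cpt2, the inner membrane carnitine palmitoyltransferase, went from 93.1 ± 7.15 to 59.9 ± 3.10 FPKM (limma adjusted p 0.00299), and Crat, carnitine acetyltransferase, from 95.1 ± 1.75 to 68.2 ± 3.36 FPKM (limma adjusted p 0.00369).

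The largest fall of the family was in Slc25a34 (chromosome 4, 141618824 to 141623821, minus strand, GRCm38), a member with no substrate assigned here. It measured 73.0, 84.5 and 65.0 FPKM in Ctrl against 23.9, 27.5 and 34.1 FPKM in cKO hearts. The highest cKO heart was well under the lowest Ctrl heart, and the mean fell to 38.4% of Ctrl, with a log2 fold change of -1.36 (SE 0.150, limma adjusted p 0.00167). Slc25a35 (chromosome 11), likewise without an assigned substrate here, stood far lower, at 1.37 ± 0.174 FPKM in Ctrl and 0.826 ± 0.246 FPKM in cKO (log2 fold change -0.38, limma adjusted p 0.0460). That call was lost without any 1 of 5 hearts, at an adjusted p of 0.0599 without Ctrl replicate 1, 0.126 without Ctrl replicate 2, 0.130 without Ctrl replicate 3, 0.119 without cKO replicate 1 and 0.125 without cKO replicate 3.

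The largest rise was in Slc25a39 (chromosome 11, 102402985 to 102407946, minus strand, GRCm38), which supplies the matrix with glutathione. It measured 46.9, 48.6 and 46.2 FPKM in Ctrl against 121, 86.9 and 108 FPKM in cKO hearts. The Ctrl hearts were close together and the cKO hearts spread, with cKO replicate 2 the lowest of them and still above every Ctrl heart. The mean rose 2.23-fold, from 47.2 ± 1.23 to 105 ± 17.2 FPKM, with a log2 fold change of 1.13 (SE 0.123, limma adjusted p 0.00162). Slc25a40, a related glutathione carrier with 55.0% identical coding columns, was at 1.14 ± 0.0512 and 1.36 ± 0.254 FPKM, a log2 fold change of 0.13 with a 95% interval from -0.10 to 0.36 (limma adjusted p 0.332).

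**Figure D4:**
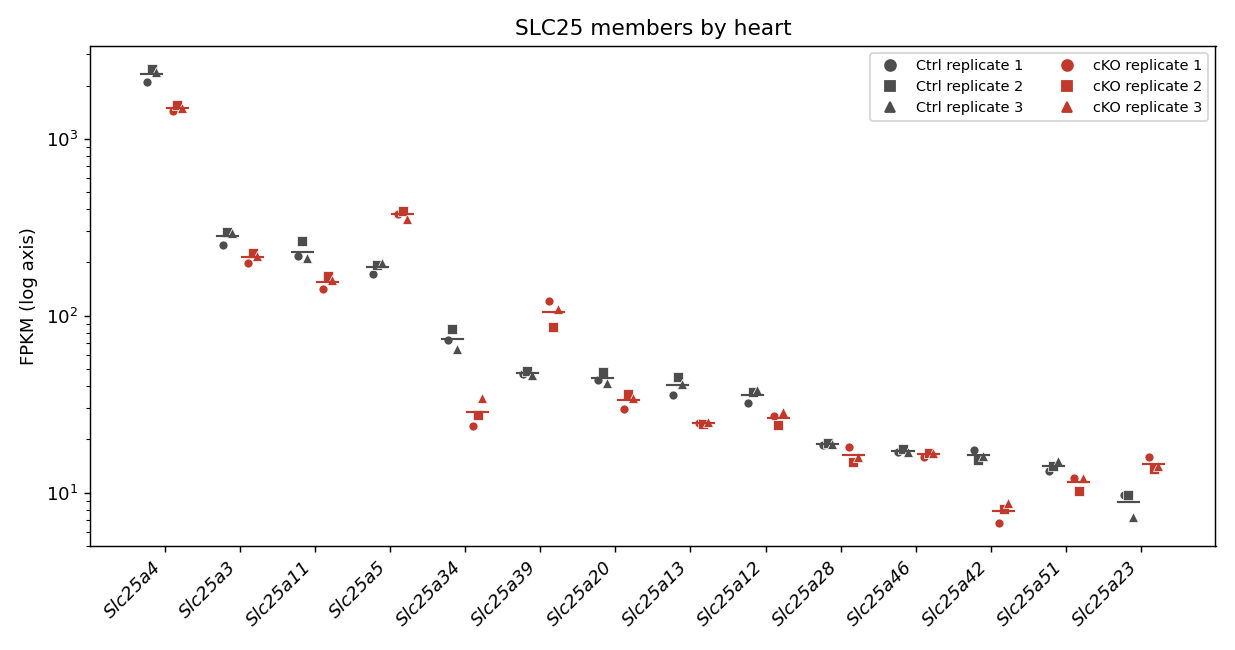
FPKM on a log axis in each heart for the 14 members with the highest Ctrl mean (grey Ctrl, red cKO, symbols by replicate, horizontal bars group means). Slc25a5, Slc25a39 and Slc25a23 lie higher in cKO, and Slc25a4 stays the highest member in both groups.

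Carriers of nucleotides and cofactors made up 9 members, all tested, of which 3 were lower and 1 higher. Together 44.4% were called, against 33.3% of all genes tested. Slc25a42 (chromosome 8), a carrier of coenzyme A and adenine nucleotides, measured 17.4, 15.3 and 16.1 FPKM in Ctrl against 6.72, 8.04 and 8.71 FPKM in cKO hearts. The groups were clearly separate, with 48.1% of the Ctrl mean left and a log2 fold change of -0.97 (SE 0.104, limma adjusted p 0.00154). Slc25a16 (chromosome 10), which is linked to coenzyme A in the matrix, measured 5.98, 6.66 and 5.77 FPKM in Ctrl against 4.49, 4.07 and 4.69 FPKM in cKO hearts. It too did not overlap (log2 fold change -0.40, SE 0.0829, limma adjusted p 0.0119). Slc25a26 (chromosome 6), the carrier of S-adenosylmethionine, the methyl donor for modification of mitochondrial RNA and protein, measured 6.82, 7.16 and 6.45 FPKM in Ctrl against 3.97, 3.85 and 4.69 FPKM in cKO hearts. Every cKO heart was lower (log2 fold change -0.60, SE 0.0871, limma adjusted p 0.00360), and 144 bases of the gene overlap Lrig1 on the other strand. Over the 6 hearts Lrig1 averaged 7.88 FPKM and Slc25a26 5.49 FPKM. The library kit does not mark strand, so the values of Slc25a26 are uncertain to that extent. Slc25a17 (chromosome 15), a peroxisomal member that carries coenzyme A and other cofactors, measured 4.22, 4.41 and 4.75 FPKM in Ctrl against 5.69, 5.58 and 5.45 FPKM in cKO hearts. It was the member higher in cKO, by a log2 fold change of 0.27 (SE 0.0700, limma adjusted p 0.0259). That call was lost at an adjusted p of 0.0883 without Ctrl replicate 1, 0.0826 without Ctrl replicate 2, 0.0649 without cKO replicate 1 and 0.0584 without cKO replicate 3. Slc25a51, which brings NAD+ into the matrix, missed the threshold narrowly at 14.2 ± 0.936 and 11.5 ± 1.06 FPKM (log2 fold change -0.28, 95% interval from -0.50 to -0.07, limma adjusted p 0.0504). It passed with a minimum of 1 FPKM (adjusted p 0.0466) and with voom (adjusted p 0.0393), and over all alternatives its adjusted p ran from 0.0393 to 0.158.

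The folate carrier Slc25a32 did not pass the test, while most enzymes that use folate in the matrix were higher. The carrier was at 3.23 ± 0.144 in Ctrl and 2.71 ± 0.233 FPKM in cKO, a log2 fold change of -0.19 with a 95% interval from -0.37 to -0.004 and a limma adjusted p of 0.106. Of the 5 mitochondrial folate enzymes tested, 4 were higher in cKO, or 80.0%, against 16.3% of all genes tested. Shmt2, which moves a carbon unit from serine to folate, rose from 15.6 ± 0.816 to 51.0 ± 8.61 FPKM (log2 fold change 1.64, limma adjusted p 0.000548), and Mthfd1l, which releases formate, from 0.709 ± 0.259 to 3.86 ± 0.863 FPKM (log2 fold change 1.51, limma adjusted p 0.00155). The difference between the carrier and these enzymes was not tested.

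Carriers of amino acids showed 1 call among ornithine, basic, branched-chain and glycine carriers. That was 25.0% of the 4 tested, against 33.3% of all genes tested. Slc25a29 (chromosome 12), a carrier of basic amino acids, measured 4.57, 5.42 and 5.04 FPKM in Ctrl against 2.11, 2.19 and 2.53 FPKM in cKO hearts. All cKO hearts lay lower, with 45.4% of the Ctrl mean left (log2 fold change -0.88, SE 0.0886, limma adjusted p 0.00142). The branched-chain amino acid carrier Slc25a44 missed the threshold on the other side, at 6.77 ± 0.226 in Ctrl and 8.60 ± 1.14 FPKM in cKO (log2 fold change 0.30, limma adjusted p 0.0552), and passed without cKO replicate 2 (adjusted p 0.0205), with median-of-ratios scaling (adjusted p 0.0468) and scaled without mtDNA-encoded genes (adjusted p 0.0389). Over all alternatives its adjusted p ran from 0.0205 to 0.150. The glycine carrier Slc25a38 and the ornithine carrier Slc25a15 did not pass, nor did the glutamate carrier Slc25a22, whose hearts overlapped at 7.77 ± 0.713 and 8.23 ± 1.45 FPKM.

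Among carriers of ATP-Mg and phosphate, which change the adenine nucleotide content of the matrix in response to calcium, Slc25a23 (chromosome 17) measured 9.65, 9.66 and 7.29 FPKM in Ctrl against 15.9, 13.5 and 14.2 FPKM in cKO hearts. Each cKO heart was above each Ctrl heart, and the mean rose 1.64-fold (log2 fold change 0.66, SE 0.121, limma adjusted p 0.00761). The gene overlaps Gm17168 on the other strand by 3433 bases, and the latter averaged 0.685 FPKM. Slc25a24 and Slc25a25 of the same group did not pass. Slc25a1 (chromosome 16), the citrate carrier that provides the cytosol with citrate for lipid synthesis, rose from 3.24 ± 0.275 FPKM in Ctrl to 4.94 ± 0.895 FPKM in cKO (log2 fold change 0.48, SE 0.119, limma adjusted p 0.0221), with an adjusted p of 0.0684 without Ctrl replicate 2 and 0.0735 without Ctrl replicate 3. The dicarboxylate carrier Slc25a10 did not pass.

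In all, 21 tested members did not pass, with log2 fold changes from -0.31 to 0.30 and Ctrl means from 0.973 to 18.8 FPKM. The mitoferrins Slc25a28 and Slc25a37, which bring iron to the matrix for haem and iron-sulphur clusters, were both among them, also at an unadjusted p under 0.05 and with voom. Slc25a28, the more abundant, was at 18.8 ± 0.169 and 16.3 ± 1.68 FPKM (log2 fold change -0.20, 95% interval from -0.40 to 0.01), and passed without cKO replicate 1 (adjusted p 0.0432). The 3 members similar to uncoupling proteins, Slc25a14, Slc25a27 and Slc25a30, did not pass by limma, unadjusted p or voom and overlapped between groups. Slc25a46, an outer membrane member linked to mitochondrial fission, was at 17.3 ± 0.396 and 16.4 ± 0.548 FPKM, a log2 fold change of -0.07 with a 95% interval from -0.22 to 0.08. The 9 members not tested were Slc25a2, Slc25a18, Slc25a21, Slc25a31, Slc25a41, Slc25a43, Slc25a48, Slc25a53 and Slc25a54. Their highest value in any heart was 0.224 FPKM, and Slc25a54 had 0 reads in all 6 hearts, where 3 reads would have given 0.0670 to 0.0996 FPKM.

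Genes that work beside the ADP/ATP carriers were examined in the same fit. Of 9 tested partners of ADP/ATP exchange, 3 were lower and 1 higher. Together 44.4% were called, against 33.3% of all genes tested, 16.3% higher and 17.0% lower. Ckmt2, the mitochondrial creatine kinase of muscle, which passes the phosphate of exported ATP to creatine, went from 1217 ± 108 to 803 ± 36.9 FPKM (log2 fold change -0.60, limma adjusted p 0.00503). Lower levels were also found for Atp5a1 and Atp5o of the ATP synthase, with log2 fold changes of -0.45 and -0.36. Its subunits Atp5b, Atp5c1 and Atp5d did not pass (limma adjusted p 0.168, 0.0909 and 0.256). Of the 3 VDAC channels, through which metabolites cross the outer membrane, Vdac2 and Vdac3 were higher, with log2 fold changes of 0.34 and 0.39, and Vdac1, the most abundant, did not pass (416 ± 24.7 and 374 ± 11.0 FPKM, limma adjusted p 0.180).

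Inner membrane transporters outside the family were compared in the same way. Of 17 tested, 5 were lower and none higher by limma, 6 and 1 at an unadjusted p under 0.05, and 5 and 0 with voom. The 5 lower are 29.4% of those tested, against 17.0% of all genes lower and 33.3% called in either direction. The mitochondrial pyruvate carrier is built of Mpc1, at 24.2 ± 2.80 and 17.2 ± 0.651 FPKM (limma adjusted p 0.0108), and Mpc2, at 49.6 ± 3.55 and 35.9 ± 2.10 FPKM (limma adjusted p 0.00784). The ABC transporters Abcb8 and Abcb10 were lower by log2 fold changes of -0.63 and -0.46. Of 5 SLC25 proteins that carry other symbols, the uncoupling proteins Ucp1, Ucp2 and Ucp3 and the outer membrane proteins Mtch1 and Mtch2, none passed at a limma adjusted p under 0.05, 1 was lower and 1 higher at an unadjusted p under 0.05, and 1 was lower with voom. Ucp3, the form of skeletal and cardiac muscle, came closest, at 27.7 ± 4.71 and 13.98 ± 7.35 FPKM (log2 fold change -1.05, limma adjusted p 0.0557).

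Promoters of the members were searched for 4 short motifs. RefSeq sequence (GRCm38.p6) from 250 bases before to 50 after the start was given for 36 of the 47 members, as 46 entries. The E-box CACGTG, bound by basic helix-loop-helix factors such as MYC and USF, was found on either strand in 8 of the 46 entries (17.4%), of 7 members, and in 7.15% of the 32851 promoters of all genes. Of these 7 members Slc25a1 was higher and Slc25a13 lower in cKO, and the other 5 were not called or not tested. The windows of both called members are shown 5′ to 3′ on the strand of the gene with the E-box in capitals, at chr16:17928443-17928468 (minus strand), 239 bases before the start of Slc25a1, and at chr6:6217283-6217308 (minus strand), 125 bases before the start of Slc25a13.
Slc25a1: gctccagacgCACGTGtctctaaact
Slc25a13: cagtctgagtCACGTGtcctggcccc
Whether any factor binds at these sites was not tested. The C/EBP-ATF response element, searched as TGATGNAAN on both strands, was in 0 of the 46 entries and in 3.95% of all promoters. The half-site of oestrogen-related receptors with its flank, TNAAGGTCA, was also in 0 entries, against 1.28% of all promoters. The NRF1 core GCGCATGC was in 2 entries (4.35%, against 2.71%), of Slc25a31 and Slc25a54. The letters of none of these 4 motifs stood in the windows of Slc25a4, Slc25a5, Slc25a34 and Slc25a39.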

How the data were processed

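Poly-A RNA of 6 hearts was sequenced as paired ends of 150 bases. Per the study's methods and the submitters' processing notes, the authors aligned reads with HISAT2 2.0.5, counted them with featureCounts 1.5.0-p3 and deposited FPKM per gene. The authors tested with DESeq2 (1.16.1 by the notes, another version by the methods). The notes name mm9, but 53499 of 54409 gene positions equal those of GENCODE M21, so coordinates are given as GRCm38. The library kit does not mark strand. The deposited FPKM values were whole multiples of 1 read, which gave the read totals. The library size they imply was 0.980, 0.913 and 0.972 times the total in Ctrl and 1.06 times it in each cKO heart, so the deposited values already hold a scaling between samples, and the factor differs between groups. The deposited gene length (other, gene-level) was taken as given.

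Genes averaging 0.5 FPKM or more over the 6 hearts were tested as log2(FPKM + 1), which understates changes of low genes, with limma 3.58.1 in R 4.3.3 (trend, no covariates, two-sided), Benjamini-Hochberg adjustment over all 12944 genes and a threshold of 0.05. In simulated tables with 200 changed genes each, 71.2% of 2-fold and 93.6% of 4-fold changes were recovered over 12927 to 12965 genes. Of the calls in these tables, 6.24% were false. The data had 4315 calls, so the simulated rates need not hold for them. Ratios, shares and sums within hearts were compared by exact permutation.

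Values per heart are given for each called member of 5 FPKM or more in its higher group, as well as for 8 members whatever their change, and at most 4 called genes of each related list are named. Of the called genes, 1 is not reported here but stays in the counts. The members, lists and tests were chosen with earlier results of these data known. Same-numbered hearts were not treated as pairs. Alternatives are under the dependence on processing. Sequences came from GENCODE and RefSeq.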

Additional observations from a re-analysis of the deposited data

How the results depend on the processing

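Each tested member was refitted under 14 alternatives, as far as it stayed in the test (531 comparisons with the reported value). Of these, 488 kept direction and side of the threshold, 25 lost and 7 gained a call, and 11 changed sign. Of the 17 called members, 11 kept their call throughout, among them Slc25a4, Slc25a5, Slc25a34 and Slc25a39. The sign changes were in members close to 0. Scaled without mtDNA-encoded genes, Slc25a37, Slc25a46 and Slc25a47 had log2 fold changes of 0.0522, 0.0143 and 0.0487. Slc25a47 was at 0.00795 under median-of-ratios scaling and 0.00364 with voom. Without single hearts the log2 fold change ran from -0.0439 to 0.184 for Slc25a22, from -0.0339 to 0.00615 for Slc25a37 and from -0.209 to 0.147 for Slc25a47. Without filter, Slc25a1, Slc25a3 and Slc25a35 lost their calls.

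The family median moved to -0.200 with a pseudocount of 0.1, -0.0568 without filter, -0.0874 scaled without mtDNA-encoded genes and -0.219 with voom. Leaving out single hearts gave 3 to 6 higher and 8 to 12 lower members, and 1400 to 1993 higher and 1434 to 2006 lower genes in all, where fewer samples were fitted. The summed family FPKM without Slc25a4 differed by 11.4 FPKM in the other direction. With the replicate block, 4 members were higher and 11 lower, as Slc25a17 and Slc25a35 lost their calls. Same-numbered hearts correlated at -0.06, 0.17 and -0.01 in their deviations from the group means, and not every heart correlated best with its own number. Depth limits the 9 members not tested, which had at most 40 reads in a heart.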
